A study of Mus musculus with 6 samples.

Results

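The genes described are 10 of the 19752 measured on the arrays: the S100 genes S100a4, S100a6, S100a8, S100a9, S100a10, S100a11 and S100a13, the annexin genes Anxa1 and Anxa2, and Capg. They were taken by symbol, from probe sets annotated to a single gene, and all 10 had such a probe set. The samples were regulatory T (Treg) cells, CD4 T cells that restrain immune responses and depend on the transcription factor Foxp3, from the pancreas (3 arrays) and the spleen (3 arrays) of female mice of the NOD strain, which is prone to autoimmune diabetes. All mice were 10 weeks old and prediabetic, had the labelled background NOD NRB_SFB+ and carried the Foxp3-ires-gfp reporter, so that GFP marked Foxp3-expressing cells. Cells were sorted as DAPI-, CD45+, TCRb+, CD4+ and GFP+, and the labels do not say whether an array came from 1 mouse or from a pool. The question put by the design is what distinguishes Treg cells of the attacked organ from their counterparts in a lymphoid organ.

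S100 proteins are small calcium sensors of the EF-hand type that mostly work as dimers. In most of them, though not in all, calcium binding exposes a surface that holds partner proteins such as annexins, cytoskeletal proteins and receptors. Annexins bind acidic phospholipids of membranes when calcium rises, and Capg caps the fast-growing ends of actin filaments in the same calcium-dependent way. In T cells several of these genes, S100a4 and S100a6 among them, are known from effector and memory states and from migrating cells, while S100a8 and S100a9 are genes of neutrophils and monocytes.

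S100a6, S100a4, Anxa2 and Capg had the largest differences among the 10 genes, each with a higher level on all 3 pancreas arrays than on any spleen array. The fold changes were 1.72 for S100a6, 1.51 for S100a4, 1.55 for Anxa2 and 1.74 for Capg. Anxa1 went the other way and was 1.31-fold higher in spleen. S100a10, S100a11 and S100a13 had tissue means within 0.19 of each other on the log2 scale, and S100a8 and S100a9 were at or near background. After adjustment over all genes, 0 of the 10 passed the test (limma, Benjamini-Hochberg, threshold 0.05), where 0.678% of all genes did, and S100a6 came nearest with an adjusted p of 0.0527. At an unadjusted limma p under 0.05, 4 of the 10 were higher in pancreas, against 3.2% of all genes, and 1 was higher in spleen, against 3.64%. The arrays of the tissues did not overlap for 5 of the 10 genes with the pancreas higher, against 4.57% of all genes, and for 1 with the spleen higher, against 5.81%. The 10 genes were proposed with results of these arrays known, so these counts are a description. In RNA of sorted bulk cells, more cells of a type and more RNA per cell cannot be told apart. The median log2 fold change of the 10 was 0.17, that of all genes -0.000913.

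The DNA just upstream of S100a6, S100a4, Anxa2 and Capg is shown because these 4 genes had the largest differences in the same direction, higher in pancreas. Each line gives the 250 bases before the annotated start, 5′ to 3′ on the gene's own strand, from RefSeq on the mouse build GRCm38.p6. Capitals mark matches to TGANTCA, a motif of AP-1 transcription factors, and to TATAAA, the letters of a TATA box, each searched on both strands. The stretch of S100a6 is at chr3:90612644-90612893, that of S100a4 at chr3:90603520-90603769, that of Anxa2 at chr9:69453433-69453682 and that of Capg at chr6:72549397-72549646, all on the + strand.
S100a6: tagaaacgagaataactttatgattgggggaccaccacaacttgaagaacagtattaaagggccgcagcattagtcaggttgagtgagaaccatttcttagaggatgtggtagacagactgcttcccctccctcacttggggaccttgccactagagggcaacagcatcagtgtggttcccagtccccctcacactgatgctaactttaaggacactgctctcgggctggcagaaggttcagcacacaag
S100a4: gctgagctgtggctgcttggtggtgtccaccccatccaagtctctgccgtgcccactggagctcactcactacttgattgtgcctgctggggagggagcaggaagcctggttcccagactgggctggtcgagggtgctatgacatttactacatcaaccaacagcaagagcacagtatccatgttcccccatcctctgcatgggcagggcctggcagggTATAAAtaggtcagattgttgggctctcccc
Anxa2: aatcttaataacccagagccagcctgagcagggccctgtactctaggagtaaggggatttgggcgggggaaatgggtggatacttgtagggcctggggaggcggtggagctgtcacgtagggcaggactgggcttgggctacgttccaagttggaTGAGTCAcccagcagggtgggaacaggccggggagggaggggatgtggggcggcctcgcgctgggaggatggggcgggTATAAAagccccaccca
Capg: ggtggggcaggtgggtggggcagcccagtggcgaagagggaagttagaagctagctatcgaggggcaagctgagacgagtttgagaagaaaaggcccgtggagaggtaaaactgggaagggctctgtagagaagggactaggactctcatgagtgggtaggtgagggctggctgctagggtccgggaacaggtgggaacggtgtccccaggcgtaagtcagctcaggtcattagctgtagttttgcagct

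The 4 stretches did not share these motifs. TGANTCA was in the stretch of Anxa2, beginning 95 bases before the start, and TATAAA in those of Anxa2, 17 bases before it, and S100a4, 31 bases before it. Those of S100a6 and Capg held neither in this window. Of the 10 genes, 9 had an entry in the promoter table. TGANTCA was in 2 of these 9 stretches, those of Anxa2 and S100a11, and in 6.75% of the 32851 stretches of all genes. TATAAA was in 4 of the 9, those of Anxa1, Anxa2, S100a4 and S100a8, and in 12.4% of all. Anxa2 and S100a4, with a higher mean in pancreas, thus stood beside Anxa1, with a higher mean in spleen, and S100a8, below background, in holding TATAAA. None of these differences passed the test. Whether a match to these letters works as a TATA box was not tested.

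**Figure D1:**
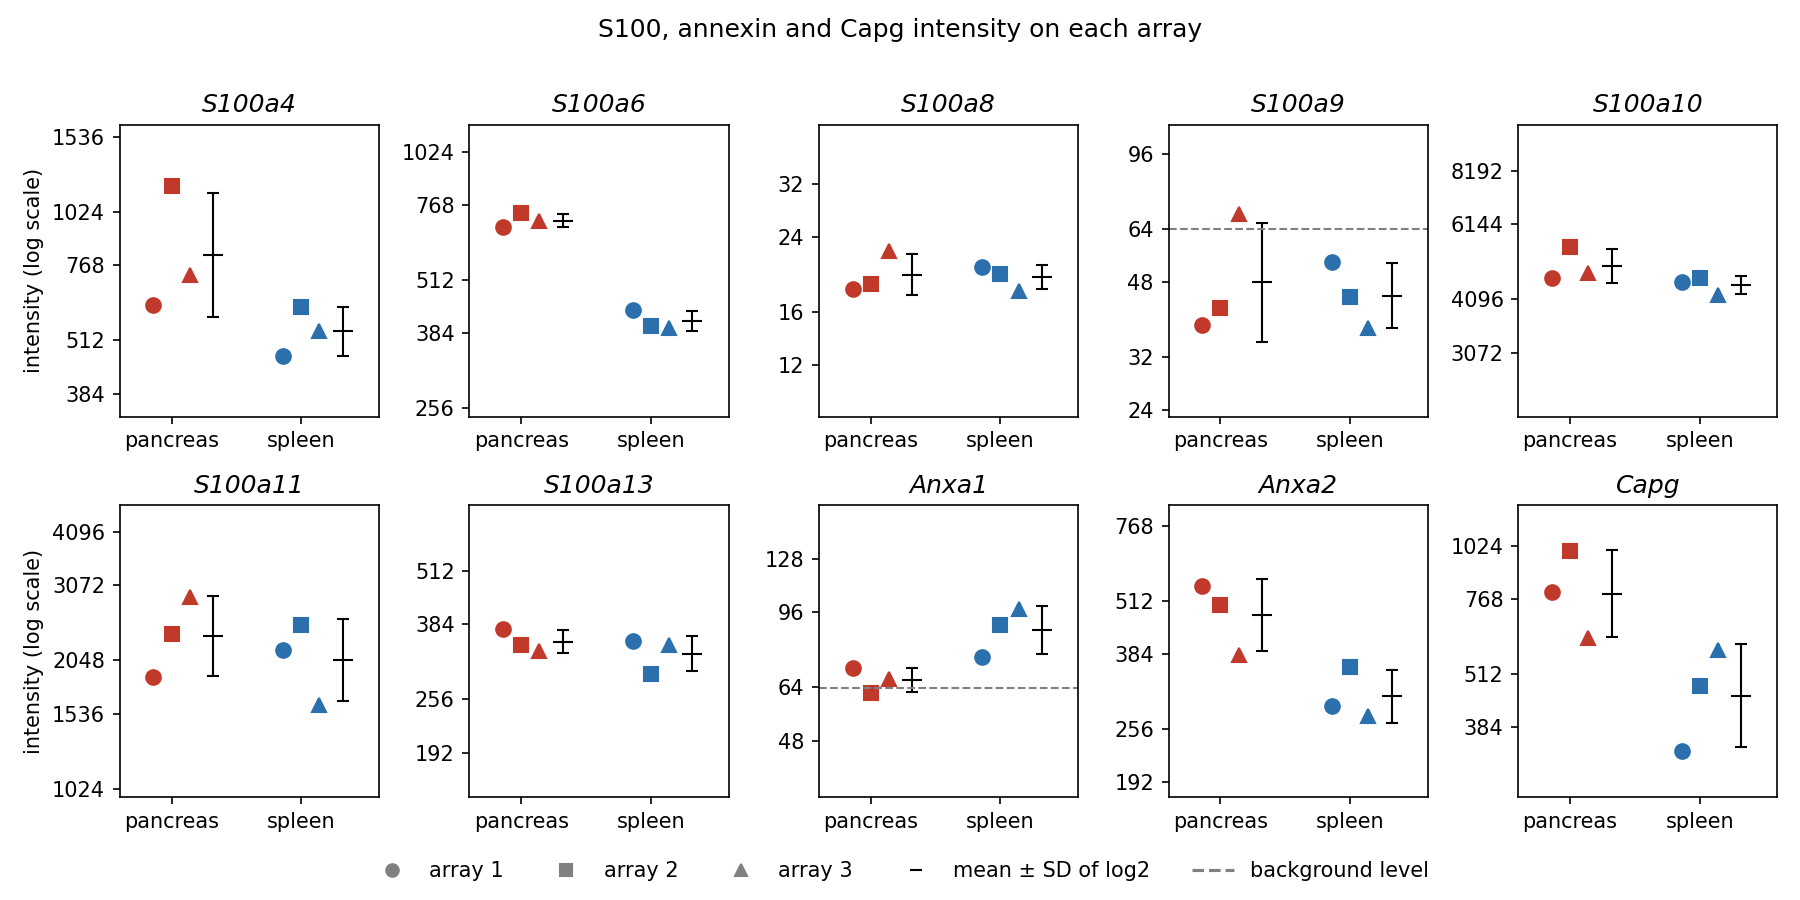
Each panel plots the intensity of 1 gene (log scale) on the 3 pancreas arrays (red) and the 3 spleen arrays (blue), with the mean ± SD of the log2 values beside them and, where it lies in range, the background level of 63.9 as a dashed line. The S100a6 arrays fall into compact groups, 681.5 to 733.7 in pancreas and 393.9 to 434.9 in spleen, whereas those of S100a11 and S100a13 overlap between tissues.

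S100a6, which encodes calcyclin, a dimeric S100 protein found at the membrane and in the cytoplasm, had intensities of 682, 734 and 702 in the pancreas and of 435, 399 and 394 in the spleen, here and below in the order of array 1 to 3. Every pancreas array was well above every spleen array, and the spread within a tissue was small. The log2 level was 9.46 ± 0.05 in pancreas and 8.68 ± 0.08 in spleen (SD, n = 3 each), a log2 fold change of 0.79 ± 0.15 (SE, adjusted p = 0.0527, limma). The 95% confidence interval of this difference ran from 0.45 to 1.13. Array weights aside, the adjusted p was under the threshold with quantile normalization (0.0425), with dim genes left out (0.0318), with 16 added to the intensities (0.0345) and without pancreas array 3 (0.0356), and reached 0.291 without spleen array 2. The log2 difference itself stayed between 0.76 and 0.84 over the 14 alternatives without array weights. Leaving out dim genes, the treatment of probe sets, the variance model and the replicate block could not move it, so only the other alternatives bear on its stability.

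S100a4, whose protein binds non-muscle myosin and is linked with cell motility, had intensities of 619, 1178 and 731 on the pancreas arrays and of 471, 613 and 538 on the spleen arrays. Pancreas array 2 stood far above the rest, and the lowest pancreas array was only just above the highest spleen array, by 0.0157 on the log2 scale, and below it after quantile normalization. The log2 level was 9.66 ± 0.48 against 9.07 ± 0.19 (SD, n = 3 each), a log2 fold change of 0.59 ± 0.24 (SE, adjusted p = 0.603, limma). Without pancreas array 2 it was 0.32. S100a4 and S100a6 lie in the same gene cluster with only S100a5 between them, and the log2 ratio of S100a6 to S100a4 overlapped between tissues, at -0.20 ± 0.43 in pancreas and -0.39 ± 0.25 in spleen (exact two-sided permutation p = 0.6, n = 3 each). The design of 3 arrays against 3 allows no p below 0.1.

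S100a10, also called p11, is the S100 protein that forms a stable complex with annexin A2 and brings membrane proteins to the cell surface. Its intensities were 4613, 5445 and 4716 on the pancreas arrays and 4509, 4597 and 4200 on the spleen arrays. The tissues did not overlap, but the gap between them was 0.00506 on the log2 scale, and they overlapped once each array was centred on its median or quantile-normalized. The log2 fold change was 0.15, with a 95% confidence interval from -0.20 to 0.50.

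Anxa2, the annexin that pairs with S100a10, had intensities of 555, 501 and 381 on the pancreas arrays and of 290, 358 and 274 on the spleen arrays. Pancreas array 3 was the lowest of its tissue and still above every spleen array. The log2 level was 8.89 ± 0.28 against 8.25 ± 0.20 (SD, n = 3 each), a log2 fold change of 0.63 ± 0.19 (SE, adjusted p = 0.307, limma). With 1 array left out the fold change ran from 0.52, without pancreas array 1, to 0.79, without pancreas array 3. The adjusted p of these fits ran from 0.0554, without pancreas array 3, to 0.9999, without pancreas array 2 (limma). The log2 ratio of Anxa2 to S100a10 within an array was -3.06, -3.44 and -3.63 in pancreas and -3.96, -3.68 and -3.94 in spleen. Every pancreas array was above every spleen array in this ratio. Its means differed by 0.48 on the log2 scale, at the smallest exact two-sided permutation p that the design allows (p = 0.1, n = 3 each). The ratio restates the fold changes of both genes, which were chosen with results known, and was not computed after quantile normalization. No unequal change of the partners is read from it. Over the 3 pairs of genes compared in this way the adjusted p was 0.3 (Benjamini-Hochberg of the exact permutation p, n = 3 each).

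Anxa1 encodes annexin A1, a mediator that dampens inflammation through formyl peptide receptors. Its intensities were 71.0, 62.2 and 67.0 on the pancreas arrays and 75.6, 89.6 and 97.6 on the spleen arrays, close to the background level of 63.9. All spleen arrays and 2 of 3 pancreas arrays were above that level, and the tissues did not overlap. The log2 level was 6.06 ± 0.10 in pancreas and 6.44 ± 0.19 in spleen (SD, n = 3 each), a log2 fold change of -0.39 ± 0.17 (SE, adjusted p = 0.693, limma). The tissues overlapped once each array was centred or quantile-normalized, although the sign was the same in all 16 alternatives, some of which could not change it. The log2 ratio of Anxa1 to S100a11, whose protein is a partner of annexin A1, was -5.13 ± 0.37 in pancreas and -4.56 ± 0.45 in spleen, and the arrays overlapped (exact two-sided permutation p = 0.3, n = 3 each).

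S100a11 had intensities of 1875, 2356 and 2889 on the pancreas arrays and of 2168, 2485 and 1604 on the spleen arrays, with tissues interleaved. Its log2 fold change was 0.19, with a 95% confidence interval from -0.30 to 0.67. It was the only gene of the 10 with more than 1 probe set, and the other probe set had values of 1796, 2253 and 2715 in pancreas and of 2095, 2398 and 1544 in spleen, almost the same in shape. RefSeq lists 1 pseudogene named for S100a11, and whether the probe sets also take up signal of such copies was not tested. S100a13, which takes part in the release of proteins that lack a signal peptide, had intensities of 376, 343 and 332 on the pancreas arrays and of 350, 294 and 343 on the spleen arrays. These overlapped too, and the difference of 0.09 had a 95% confidence interval from -0.26 to 0.45.

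S100a8 and S100a9 encode the subunits of calprotectin, an abundant cytosolic protein of neutrophils and monocytes that, once released, signals danger to other cells. S100a8 was below background on all 6 arrays, with intensities of 18.1, 18.6 and 22.2 in pancreas and of 20.4, 19.7 and 18.0 in spleen. S100a9 was at 38.0, 41.7 and 69.3 in pancreas and at 53.3, 44.3 and 37.5 in spleen. Pancreas array 3 was the only array with S100a9 above background. The differences of both genes are of signals at or below background, and no change is read from them.

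Capg, the actin-capping member of the gelsolin family, had intensities of 795, 995 and 621 on the pancreas arrays and of 337, 479 and 582 on the spleen arrays. The spleen arrays spread widely, and the highest of them came close to the lowest pancreas array. The log2 level was 9.62 ± 0.34 against 8.83 ± 0.40 (SD, n = 3 each), a log2 fold change of 0.80 ± 0.24 (SE, adjusted p = 0.294, limma), which was 0.58 with spleen array 1 left out and 0.97 with spleen array 3 left out. The tissues overlapped once each array was centred on its median, but not after quantile normalization.

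**Figure D2:**
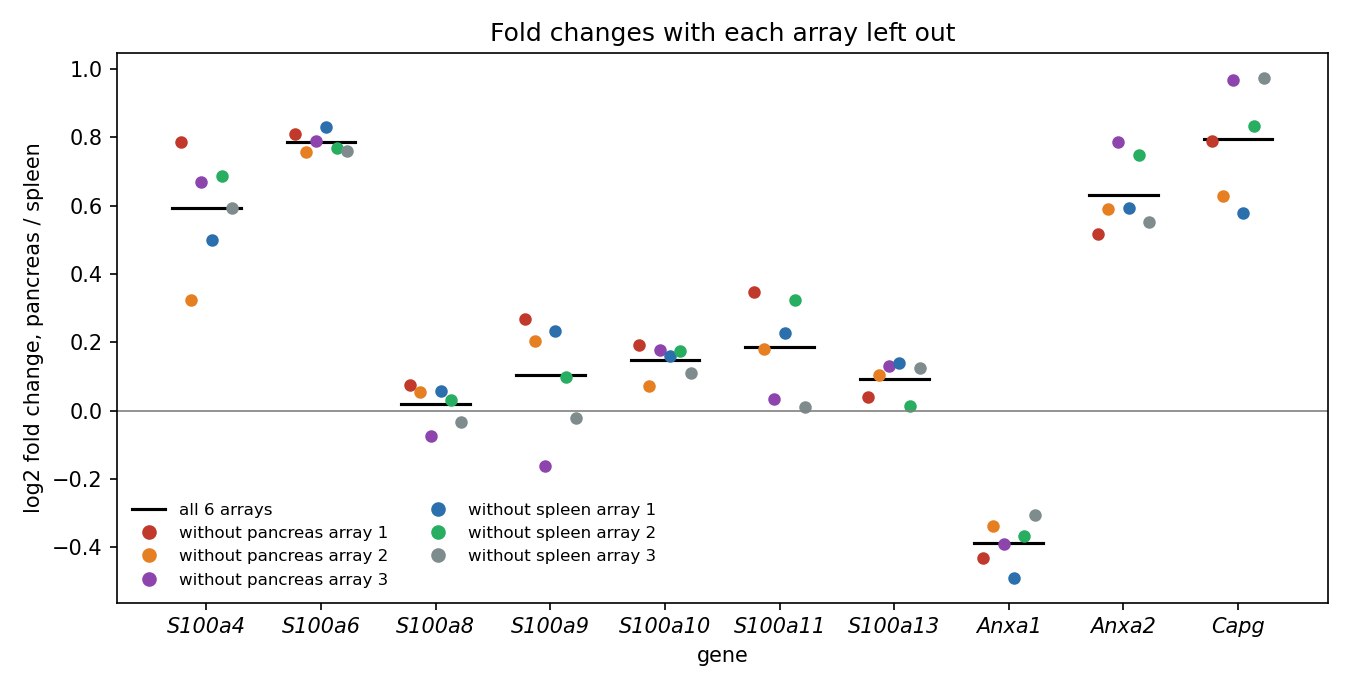
The log2 fold change of each gene, pancreas over spleen, is plotted with all 6 arrays (black line) and with each array left out (coloured points). S100a6 keeps between 0.76 and 0.83, S100a4 drops to 0.32 without pancreas array 2, and S100a8 and S100a9 cross 0.

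The arrays differed in the width of their log2 intensity distribution, and several of the 10 genes moved with it. The interquartile range over all genes was 2.96, 2.63 and 2.10 in pancreas and 2.38, 2.69 and 2.90 in spleen, in the order of array 1 to 3. The narrowest array of each tissue, pancreas array 3 and spleen array 1, had the lowest Capg and the highest S100a8 and S100a9 of that tissue. Over all 6 arrays S100a11 was highest on pancreas array 3, the narrowest, and lowest on spleen array 3, while S100a6 varied little within each tissue. The part of array width in these differences was not tested beyond quantile normalization, which gives all arrays the same width and left S100a6 at 0.84, Capg at 0.85, Anxa2 at 0.70, S100a4 at 0.65 and Anxa1 at -0.40 on the log2 scale.

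Over all 18 measured genes whose symbol begins with S100, 0 passed the test, 12 had a higher mean in pancreas and the median log2 fold change was 0.10. These symbols include the 7 S100 genes described, chosen with results known and all with a higher mean in pancreas. The 6 genes with a lower mean were all outside those 7, so no lean of the whole family is read from the count. One of these symbols, S100pbp, names a binding protein and no S100 protein, and it was at -0.28. S100a1, a family member known from striated muscle, did not overlap between tissues, with intensities of 126, 130 and 110 in pancreas and of 106, 98.6 and 93.0 in spleen (log2 fold change 0.29, adjusted p = 0.909, limma). A mean above background in at least 1 tissue was found for 10 of the 18. Along chromosome 3, S100a4 and S100a6 flank S100a5, which was below background on every array with a log2 difference of -0.03. S100a2, on the other side of S100a4, was at -0.08, and S100a7a, the next after S100a6, at -0.02. Large positive differences were thus at 2 of the 12 measured genes of this cluster, and S100a11 and S100a10 lie farther along the chromosome, side by side, at 0.19 and 0.15.

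**Figure D3:**
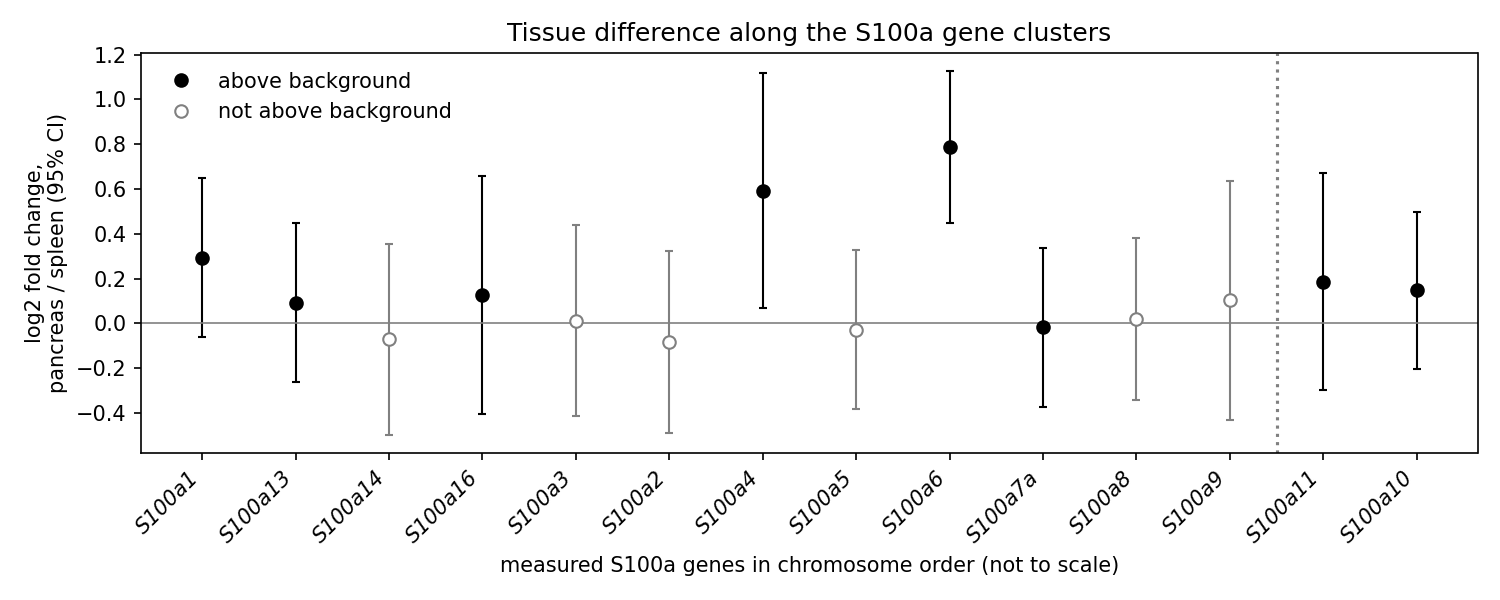
The log2 fold change, pancreas over spleen, of the measured S100a genes is plotted in their order on chromosome 3, with bars for the 95% confidence interval and open points for genes not above background in either tissue; a dotted line separates S100a11 and S100a10 from the main cluster. Only the intervals of S100a4 (0.07 to 1.12) and S100a6 (0.45 to 1.13) lie above 0.

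Of the 12 measured annexin genes 0 passed the test, with 6 higher and 6 lower in pancreas by their means and a median of 0.00302. Anxa4, an annexin of epithelia and secretory cells, had intensities of 179, 139 and 130 in pancreas and of 70.3, 126 and 117 in spleen (log2 fold change 0.55, adjusted p = 0.699, limma). Anxa11, known from vesicle and RNA granule transport, had the widest spread, with 656, 1062 and 449 in pancreas and 203, 532 and 822 in spleen, so that its 0.61 came from overlapping arrays. Anxa5 and Anxa6, abundant annexins of many cells, were at -0.04 and -0.000285. Anxa3, Anxa8, Anxa9, Anxa10 and Anxa13 were below background on every array. Of the 7 annexin genes above background, Anxa1 was thus at -0.39, Anxa2, Anxa4 and Anxa11 were between 0.55 and 0.63, and Anxa5, Anxa6 and Anxa7 were within 0.05 of 0.

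Partners and receptors of these proteins were read from a list of 14 genes, of which 12 were measured and 0 passed the test (median log2 fold change 0.03). Alcam, an adhesion molecule, had intensities of 408, 357 and 377 in pancreas and of 235, 226 and 206 in spleen (log2 fold change 0.78, adjusted p = 0.0644, limma), with no overlap. Plaur, the urokinase receptor, had 152, 94.9 and 80.7 in pancreas and 63.0, 66.4 and 63.4 in spleen, the latter at background (adjusted p = 0.347, limma). Ager, a receptor for several S100 proteins, was at -0.12 and Casp1, an inflammasome protease, at -0.18. Ahnak, the large scaffold bound by the complex of annexin A2 and S100a10, was at 0.12, Myh9, the myosin bound by S100a4, at 0.08, and Cacybp, the calcyclin-binding protein, at -0.12; these 3 were chosen after their values were seen.

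Among the 11 genes of the gelsolin family and of actin capping 0 passed the test, and the median log2 fold change was -0.05. Beside Capg, the capping protein subunit Capzb was at 0.20 and the other subunit Capza1 at -0.11, and the membrane-linked Svil was at -0.14. Of 19 measured cytoskeletal and related genes known from effector and memory T cells 0 passed, with a median of 0.05. Lgals1, a galectin of activated T cells, had intensities of 4964, 4421 and 4657 in pancreas and of 3184, 3303 and 3160 in spleen (log2 fold change 0.54, adjusted p = 0.235, limma). Lgals3, another galectin, was at 0.61, the myosin gene Myo1f at 0.63 and Tagln2, an actin-binding protein, at 0.43, and of these 3 Myo1f overlapped between tissues.

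By the root mean square difference between mean-centred log2 profiles over the 6 arrays, the genes nearest to Capg among 11690 others above background were Ehd1 (0.0499), Asb2 (0.0730) and Rilpl2 (0.0773). Those nearest to S100a6 were Cdca7 (0.0878), Alcam (0.0933) and the chemokine gene Ccl4 (0.0951). Those nearest to Anxa2 were the centromere genes Cenpa (0.0642) and Incenp (0.0852) and the cytokine receptor gene Il18rap (0.0892). All these profiles share the same 6 arrays and their differences in width.

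Several of the 10 genes are also expressed by other cells, so markers of such cells are given beside them. Of 8 measured Treg and T cell identity genes, all above background, 0 passed the test, and their summed intensity was 29344 to 30761 in pancreas and 28999 to 34152 in spleen. Neutrophil markers, which would come with S100a8 and S100a9, summed to 954 to 997 in pancreas and 867 to 960 in spleen, 0 of 16 passed and 10 were below background on every array, among them Elane, Ltf, Cxcr2 and Csf3r. Mmp9 was at 0.82 and Cd177 at -0.39, with Camp at 0.14 and Ly6g at 0.11. Monocyte and macrophage markers, cells rich in S100a4, S100a6, Anxa2 and Capg, summed to 2077 to 2641 in pancreas and 1651 to 1966 in spleen. The largest parts of these sums were Ctss, with 847, 677 and 506 in pancreas and 679, 557 and 893 in spleen, and Ccr2. Ccr2 had 753, 707 and 516 in pancreas and 369, 381 and 369 in spleen. The sums thus follow Ctss and Ccr2 above all and are not read as a measure of monocyte number. Of the 15 measured markers, 8 were below background on every array. Of these 15 markers Lyz2 passed the test, with 264, 221 and 246 in pancreas and 77.1, 51.6 and 68.7 in spleen (log2 fold change 1.90, adjusted p = 0.00134, limma), while Ccr2 was at 0.80, Lyz1 at 0.64 and Cd68 at 0.54, and Csf1r, Adgre1, Cd14, Ms4a7, Mrc1 and Cd163 were below background on every array. Acinar markers summed to 14252 to 29305 in pancreas and 1063 to 2834 in spleen, with 10 of 12 past the test, among them Clps at 4.37, Cpa1 at 4.33, Zg16 at 4.20 and Ctrl at 3.72 on the log2 scale. The part of these cells, and of those in the following lists, in the differences of the 10 genes was not tested.

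B cell markers were higher in pancreas as a list, with all 9 means higher there, 8 at an unadjusted limma p under 0.05 and a median log2 fold change of 0.74. They summed to 923 to 2023 in pancreas and 672 to 790 in spleen. Cd79a passed the test, with 213, 111 and 328 in pancreas and 49.2, 77.4 and 43.1 in spleen (log2 fold change 1.86, adjusted p = 0.0482, limma). Ms4a1, the gene of CD20, was at 2.08 (adjusted p = 0.0678, limma), Fcer2a at 1.68 (adjusted p = 0.0648, limma) and Ebf1 at 1.25 (adjusted p = 0.241, limma). For these 4 genes pancreas array 2 was the lowest of its tissue, the array on which S100a4, S100a6, S100a10 and Capg were highest. That array also had the highest values of the acinar markers Clps, Cpa1, Zg16 and Ctrl. What lies behind these array patterns was not tested.

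Of the dendritic cell markers 0 of 7 passed the test, and they summed to 393 to 575 in pancreas and 313 to 384 in spleen. Cd209a did not overlap between tissues, with 169, 77.3 and 241 in pancreas and 64.7, 51.9 and 49.96 in spleen (log2 fold change 1.41, adjusted p = 0.132, limma), Siglech was at 0.26 and Zbtb46 at 0.02, and Itgax, Flt3, Xcr1 and Clec9a were below background on every array. Duct and epithelial markers (0 of 11) summed to 687 to 813 against 621 to 701. There Muc1 was at 0.70, Tff2 at 0.41, Epcam at 0.35 and Krt8 at 0.13, and Krt19, Cftr, Cldn7 and Cdh1 were below background throughout. Fibroblast and stromal markers (0 of 8) summed to 2480 to 2936 against 2475 to 2966, of which Thy1, a gene that mouse T cells also express, made up 2030, 2378 and 2198 in pancreas and 1853, 2439 and 2262 in spleen. Col1a1 was at 0.11, Col1a2 at 0.10 and Col3a1 at -0.07, and Dcn, Lum and Pdgfrb were below background. Endothelial markers (0 of 7) summed to 686 to 805 against 1039 to 1094, most of it from Pecam1, which lymphocytes can also express, with 559, 439 and 362 in pancreas and 732, 829 and 795 in spleen (log2 fold change -0.81, adjusted p = 0.112, limma). Vwf was at -0.04, and the other 5 endothelial markers were below background on every array. Islet markers (0 of 8) summed to 500 to 712 against 535 to 633, with Ins2 at 0.21, Sst and Chga at 0.09 and Ppy at -0.18. Red cell and platelet markers (0 of 3) summed to 157 to 174 against 117 to 141, with Ppbp at 0.78 (adjusted p = 0.0842, limma).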

How the data were processed

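Gene expression was measured on 6 Affymetrix Mouse Gene 1.0 ST arrays, 3 per tissue, after amplification of sorted-cell RNA. The authors deposited an intensity per probe set on a linear scale; the submitters' processing notes name RMA (background correction, quantile normalization, probe summary) and Affymetrix Power Tools. Versions of both are unknown, as is whether and how the arrays were normalized together. The deposited values were not on a common quantile scale over the 6 arrays. Their log2 interquartile range over all genes ran from 2.10 on pancreas array 3 to 2.96 on pancreas array 1. The median intensity of all probe sets ran from 82.0 on pancreas array 1 to 92.0 on pancreas array 3. Log2 of the deposited values was analysed with no further normalization. Of 24922 probe sets, 21425 name 1 gene, and for 921 genes with several the one with the highest mean was used. Background was the 95th percentile of the mean level of 1194 olfactory and vomeronasal receptor genes. Tissues, grouped by the titles, were compared across all genes with limma 3.58.1 (R 4.3.3; lmFit and eBayes, two-sided, Benjamini-Hochberg over 19752 genes), fitted to all 6 arrays without covariates. In simulated data 5.07% of differences of 0.5 on the log2 scale and 80.3% of differences of 1 passed, so smaller differences are mostly missed. The simulation drew independent noise and held no differences in array width. The number of arrays limits the precision, and since separate animals are not stated, p-values cover only the spread between these samples, possibly a technical one. Genes of most lists were named when among the 4 smallest p above background, and profile neighbours as the 3 nearest genes of the 3 genes with the largest change. Further genes, such as Anxa5, Anxa6 and Ctss, were named outside this rule. The Treg and T cell identity genes were given as a count and a sum, with none named. The 10 genes, the lists and the rules were chosen with earlier results of these data known. Alternatives covered normalization, dim genes, probe sets, variance model, array weights, pseudocount, the replicate number as a block, and leaving out each array. Same-numbered arrays did not deviate together (r of -0.46, 0.11 and -0.68 across genes). The highest r, 0.65, was between pancreas array 3 and spleen array 1, the narrowest of their tissues. With such differences in width these correlations cannot show whether same-numbered arrays share mice. The numbers were not taken as pairs in the main fit. Pairs of genes were compared with SciPy 1.17.1, and figures drawn with matplotlib 3.10.9.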

Additional observations from a re-analysis of the deposited data

How the results depend on the processing

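The count of the 10 genes past the test was 0 with all 6 arrays and 1, S100a6, with quantile normalization, with dim genes left out, with 16 added to the intensities and, among fits with 1 array left out (0 to 1), without pancreas array 3. It was 5 (S100a4, S100a6, Anxa1, Anxa2 and Capg) with gene-by-gene array weights, chosen after seeing the data, and 6, with S100a10 besides, with limma's default weights, whose estimation did not converge. The count over all genes, 134, was 38 with each array centred on its median, 212 with quantile normalization, 84 with 16 added, 7206 and 1684 with those weights, and 64 to 262 with 1 array left out. With the replicate number as a block, though it is not known whether it pairs the arrays, 132 genes and 0 of the 10 passed, S100a6 with an adjusted p of 0.267 (limma). The number of the 10 genes not overlapping with the pancreas higher was 5, and 3 with centring or quantile normalization. The share of all genes, 4.57%, is for the deposited values. It was not counted with centring or quantile normalization, so the 3 have no such share beside them. S100a4, S100a6, S100a10, S100a13, Anxa1, Anxa2 and Capg had the same sign in all 16 alternatives. Some of these, such as the variance model and the block, change only the p-value and could not change the sign. S100a8, below background, turned to -0.0524 with quantile normalization, to -0.0652 and -0.0442 with the default and gene-by-gene weights, and with 1 array left out ran from -0.0725 (without pancreas array 3) to 0.0756. S100a9 turned to -0.0686 and -0.0263 with those weights and ran from -0.163 (without pancreas array 3) to 0.270, and S100a11 to -0.00576 with the default weights. The cause of these changes was not tested. Signal near background limits S100a8, S100a9 and Anxa1.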
